A study of Homo sapiens with 16 samples.

Results

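The 9 antigen presentation genes followed here were HLA-B, HLA-C, B2M, TAP1, TAP2, PSMB8, PSMB9, NLRC5 and CIITA, measured in 16 CUT&Tag libraries of BE2C, a human neuroblastoma line with amplified MYCN. They are 9 of 20136 protein-coding genes, chosen by name for their role, and each was measured over its GENCODE gene body (hg19) with 5 kb on each side. CUT&Tag tethers a transposase to an antibody, here against H3K27me3 or H3K4me1, so that DNA beside the mark is cut and sequenced. For each mark there were 4 groups of 2 libraries: siCtrl and siKDM6B33, cells given a control siRNA or an siRNA to the histone demethylase KDM6B for 72 h, and DMSO and GSKJ4, cells given 0.1% DMSO or GSK-J4 (2.5 µM), which inhibits the KDM6 family, also for 72 h. All 8 groups are the same cell line. The paper describes 2 biological replicates for the knockdown and for GSK-J4. The labels do not say whether the 2 libraries of a group came from separate cultures, so part of their spread may still be technical.

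Class I molecules are made of a heavy chain, such as HLA-B or HLA-C, and the invariant light chain B2M, and they show peptides from inside the cell to CD8 T cells. The peptides are cut by the immunoproteasome, of which PSMB8 and PSMB9 are catalytic subunits, and are carried into the endoplasmic reticulum by the TAP1 and TAP2 transporter. NLRC5 is the transactivator of class I genes and CIITA that of class II genes, and both act through a complex that binds upstream of their targets. Neuroblastoma is known for low class I expression. H3K27me3 is laid down by Polycomb and accompanies silenced genes, KDM6B removes it, and H3K4me1 marks enhancers and the flanks of active promoters.

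Expression was not measured in these libraries. The files were lists of called regions: islands, which are broad domains, and narrow peaks. The mean number of tags over a base of background, which follows depth, was 0.0395 to 0.0539 for H3K27me3 and 0.0849 to 0.107 for H3K4me1 in the siRNA experiment, and 0.0298 to 0.0507 and 0.0483 to 0.0569 with the compound. Both siKDM6B33 libraries were deeper than both siCtrl libraries for each mark, and both GSKJ4 H3K27me3 libraries were deeper than both DMSO ones. GSKJ4 replicate 1 of H3K27me3 stood apart, with 16676 islands against 8006 in replicate 2 and 7175 and 7398 with DMSO. KDM6B itself had 67.4% and 70.0% of its window under H3K4me1 islands with siCtrl and 88.7% in both siKDM6B33 libraries. This does not check the knockdown, since RNA was not measured in these libraries. The paper reports RNA-seq after KDM6B knockdown in BE2C, and knockdown efficiency of its siRNAs, from other samples. Of the adrenergic genes of neuroblastoma PHOX2A, HAND2, GATA3, ISL1, DBH and TH, 6 of 6 carried H3K4me1 islands in all 8 libraries of that mark. Of the blood cell genes, PTPRC, MS4A1 and CD3E had no island of either mark in any library, CD14 had H3K4me1 islands in 5 libraries and ITGAX had H3K27me3 islands in all 8. H3K27me3 islands lay on 2 of these 6 adrenergic genes in at least 1 library of the siRNA experiment and on 6 of 6 in at least 1 library with the compound, or on 0 and 4 in every library. With the compound or DMSO, TH had 94.4% to 100% of its window under them.

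Of the 9 genes, 6 had no island of either mark in any of the 16 libraries, while 78.7% of all protein-coding genes had at least 1. These were the heavy chains HLA-B and HLA-C, the transporter genes TAP1 and TAP2, and the immunoproteasome genes PSMB8 and PSMB9. All 6 lie on chromosome 6. HLA-C, TAP1, TAP2, PSMB8 and PSMB9 had no narrow peak either. The windows of TAP2, PSMB8, TAP1 and PSMB9 overlap, so these 4 genes are in effect 1 stretch of DNA, and the canonical starts of TAP1 and PSMB9, which point away from each other, are 488 bp apart. HLA-B had a single H3K27me3 narrow peak, in an intron 2.16 to 2.17 kb downstream of the canonical start. Its summit held 7 and 2 tags with siCtrl, 2 tags in DMSO replicate 2 and 3 tags in GSKJ4 replicate 1. The peak was called in both siCtrl libraries and in neither siKDM6B33 library, on 2 to 7 tags.

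The absence of calls was not particular to these genes. Calls were sparse over 5.1 Mb (chr6:28400001-33500000), the part of chromosome 6 that holds the major histocompatibility complex, with 184 protein-coding genes. Over the 8 H3K4me1 libraries together this stretch held 99 narrow peaks, and 38 of its 51 bins of 100 kb held none, against a genome median of 48 peaks in a bin with 3 or more genes. For H3K27me3 there were 108 peaks and 33 empty bins, against a median of 15. H3K4me1 islands lay on 5 of the 184 genes (2.72%) and on 71.7% of the 19952 genes elsewhere. For H3K27me3 the shares were 2.17% and 46.9%. The genes with an island included the class II genes HLA-DRB1, HLA-DRB5 and HLA-DQB1, so the stretch was not wholly without reads. Its ends were set at the nearest bin on either side with at least the H3K4me1 median.

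**Figure D1:**
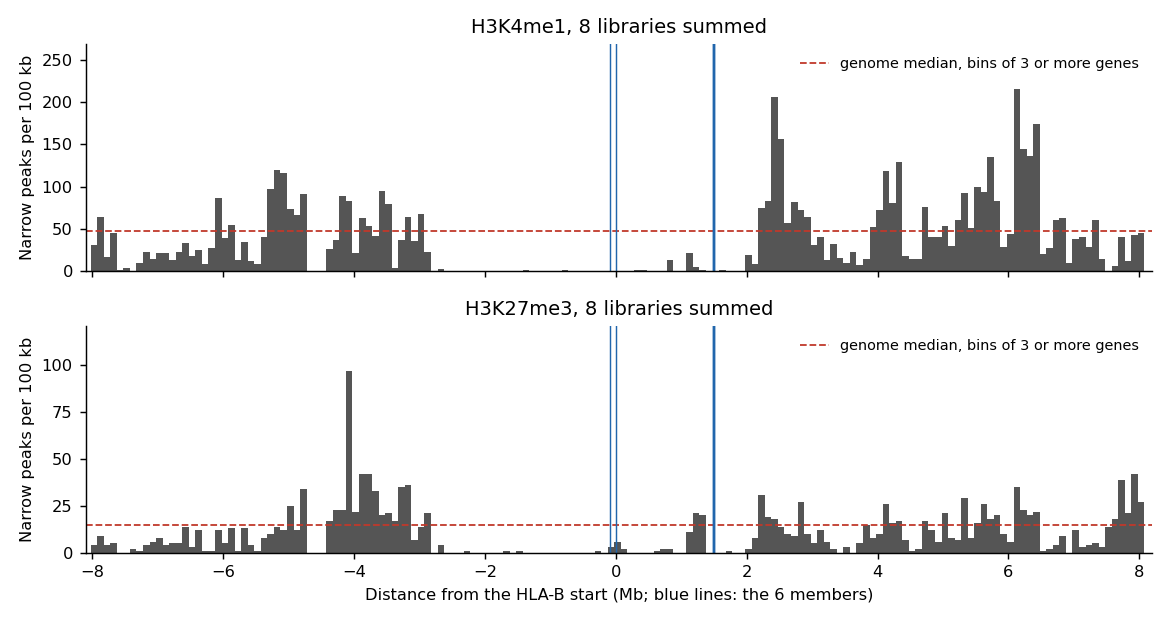
Narrow peaks per 100 kb, summed over the 8 libraries of each mark, against distance from the HLA-B start in Mb. The dashed line is the genome median of bins with 3 or more genes (48 for H3K4me1 and 15 for H3K27me3). Blue lines are the 6 chromosome 6 genes. Of the 51 bins in the 5.1 Mb around them, 38 held no H3K4me1 peak and 33 no H3K27me3 peak. Some H3K27me3 bins there pass the median, with 21 and 20 peaks at 1.23 and 1.33 Mb.

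Repeated sequence within the primary assembly was small in these windows. Of all 50-base words, 96.4% at HLA-B, 96.2% at HLA-C and 98.1% to 98.9% at TAP1, TAP2, PSMB8 and PSMB9 occurred once in GRCh37, beside 96.95% at B2M, 96.1% at NLRC5 and 97.2% at CIITA, where regions were called. The build hg19 is also distributed with alternate haplotype copies of this part of chromosome 6, and the authors kept uniquely mapped reads only. No deposited region lay on an alternate contig, and whether the CUT&Tag reads were aligned to those copies is not given in the sources used here, which name hg19 alone for this assay. For the ATAC-seq and RNA-seq of the study the methods name GRCh37-lite, a form of the build without such copies. The part of such copies in the missing calls was not tested. The empty lists at these 6 genes cannot be read as an absence of either mark, and the comparisons rest on B2M, NLRC5 and CIITA.

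The promoters of HLA-B and HLA-C are shown because the 2 heavy chain genes have near-copies of each other's sequence. They run from 250 bases before to 50 after the canonical start, on the minus strand of GRCh37 (chr6:31324907-31325206 and chr6:31239820-31240119), and 88.5% of the aligned positions are identical. Capitals mark matches, on either strand, to CCAAT, the letters of a box bound by NF-Y, and TGACG, the start of a cyclic AMP response element.
HLA-B: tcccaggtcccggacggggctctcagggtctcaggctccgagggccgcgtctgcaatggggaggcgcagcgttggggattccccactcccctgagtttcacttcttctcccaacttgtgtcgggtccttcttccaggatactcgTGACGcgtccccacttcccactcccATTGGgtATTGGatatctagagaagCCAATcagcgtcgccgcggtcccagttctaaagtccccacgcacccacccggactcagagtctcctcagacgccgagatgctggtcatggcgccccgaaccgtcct
HLA-C: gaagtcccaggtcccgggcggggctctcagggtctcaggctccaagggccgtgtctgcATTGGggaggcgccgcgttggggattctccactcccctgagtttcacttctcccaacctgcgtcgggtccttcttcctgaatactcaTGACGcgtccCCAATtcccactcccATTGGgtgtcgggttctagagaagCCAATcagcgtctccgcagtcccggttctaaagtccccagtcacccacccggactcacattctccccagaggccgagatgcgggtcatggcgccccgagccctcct
HLA-B held 3 matches to CCAAT and HLA-C held 4, and each held 1 match to TGACG. Of 19781 promoters of the same length, 35.9% held CCAAT and 29.2% held TGACG. Neither held an exact match to GAAANNGAA, the core of an interferon response element, and variants of these letters were not searched.

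With the knockdown, 1 of the 9 genes (CIITA) had more H3K27me3 island coverage in both siKDM6B33 libraries than in both siCtrl libraries, and none had less. The background over all 20136 genes was 9.98% higher and 3.25% lower. For H3K4me1, 2 genes (B2M and CIITA) had more coverage and 1 (NLRC5) had less, against a background of 46.3% higher and 9.63% lower. With the compound, H3K27me3 coverage was higher at 1 gene (NLRC5) and lower at 1 (CIITA), with backgrounds of 5.52% and 4.03%. For H3K4me1 with the compound no gene had groups that did not overlap, with backgrounds of 10.3% higher and 7.97% lower, and the only genes with islands, NLRC5 and CIITA, overlapped between groups. The median difference over the 9 genes was 0 percentage points in each comparison, which the 6 genes without islands fix, and over all genes it was 0 except for H3K4me1 with the knockdown, where it was 1.04. With 2 libraries against 2 the exact two-sided permutation test cannot give a p below 0.333, so no single gene could pass 0.05.

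**Figure D2:**
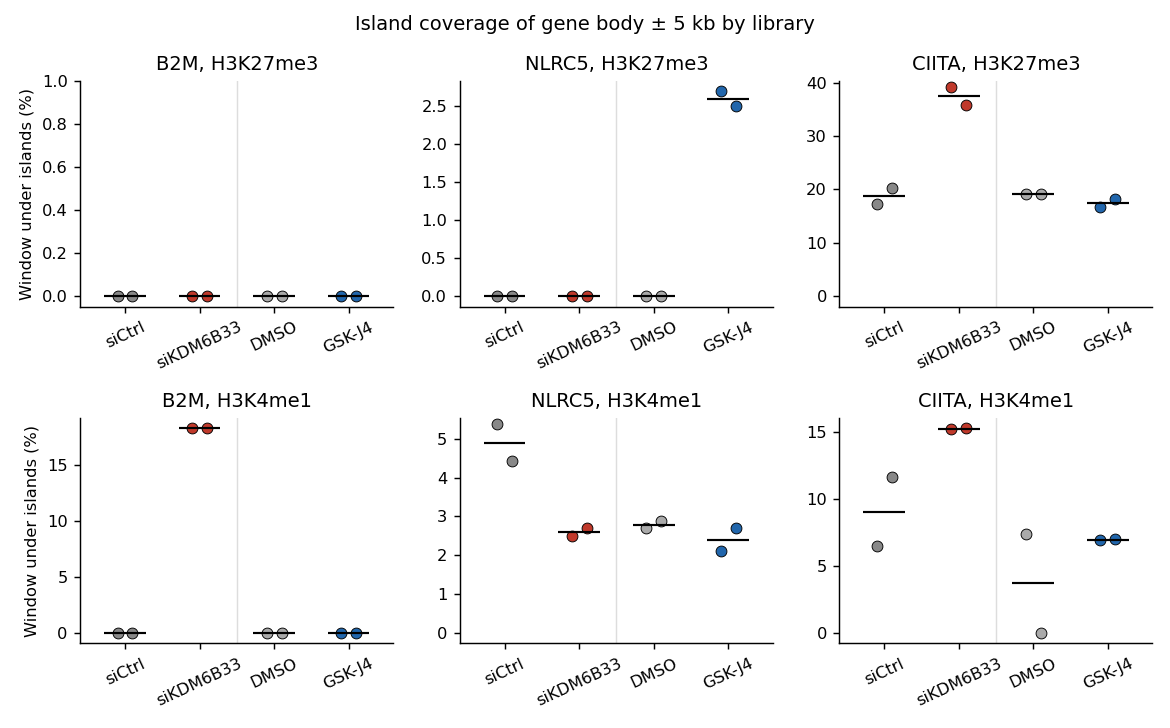
Island coverage, in percent of the gene body and 5 kb at either end, for B2M, NLRC5 and CIITA (columns) and each mark (rows). Points are libraries, bars are means of 2, and the 2 experiments have their own controls; CIITA with siKDM6B33 lies at 35.7% and 39.2% of H3K27me3, above 16.6% to 20.3% in the other 6 libraries.

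B2M, the class I light chain, is on the plus strand of chromosome 15 (chr15:45003556-45011049). No H3K27me3 island lay on it in any library. H3K4me1 islands covered 18.3% of its window in each siKDM6B33 library and 0% in the other 6 libraries. In both siKDM6B33 libraries this was the same 3.2-kb island (chr15:45003001-45006200), from -0.714 to 2.49 kb of the canonical start, over the promoter and the first exon. It also reaches PATL2, the neighbour read in the opposite direction. The highest summit in it held 2 and 3 tags with siCtrl and 9 and 6 with siKDM6B33, so narrow peaks were already called there in the controls. Divided by the genome background of each library, the summit was 28.8 ± 9.31 (SD, n = 2) with siCtrl and 70.6 ± 19.1 with siKDM6B33, a ratio of 2.46, and the groups did not overlap. B2M is among the 30428 merged H3K4me1 regions of the knockdown comparison only through its siKDM6B33 islands, so this ratio is a description. Of those regions 46.0% were higher in this sense and 28.7% had a larger ratio. The 2 islands scored low, at or above 33.6% and 30.5% of the islands of their libraries. B2M had H3K4me1 peaks of 2 tags with DMSO and no peak with GSKJ4.

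The B2M promoter (GRCh37, chr15:45003465-45003764, plus strand) lies inside that island. Capitals mark GAAANNGAA, the core of an interferon response element, CCAAT and TGACG, on either strand.
B2M: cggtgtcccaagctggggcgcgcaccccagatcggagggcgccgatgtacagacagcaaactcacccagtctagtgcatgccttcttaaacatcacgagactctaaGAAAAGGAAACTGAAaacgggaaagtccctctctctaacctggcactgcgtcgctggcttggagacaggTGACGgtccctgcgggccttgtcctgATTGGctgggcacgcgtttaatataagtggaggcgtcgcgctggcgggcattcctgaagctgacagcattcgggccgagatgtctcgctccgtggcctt
It held 2 overlapping matches to GAAANNGAA, beginning 144 and 138 bases before the start, where 7.08% of all promoters held any. There was 1 match to TGACG, 75 bases before the start, and 1 to CCAAT, on the opposite strand, 49 bases before it. The gamma-activated site TTCNNNGAA was not found in it and is in 6.42% of promoters.

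NLRC5, the class I transactivator, is on the plus strand of chromosome 16 (chr16:57023397-57117443). It carried no island at its canonical start. Its H3K4me1 islands lay at 1 intragenic site (chr16:57092201-57097800), 68.7 to 74.3 kb downstream of the canonical start, which spans exons 29 to 32 of the 49 of the canonical transcript and also a lncRNA gene. A protein-coding transcript of NLRC5 starts at the edge of the site, 68.5 kb from the canonical start, and 2 retained-intron transcripts start inside it. Outside the site narrow peaks alone were called, among them 1 of 3 to 5 tags about 56.5 kb from the canonical start in the 6 siCtrl, siKDM6B33 and DMSO libraries. At this site the H3K4me1 island was 5.6 and 4.6 kb wide with siCtrl and 2.6 and 2.8 kb with siKDM6B33. It was 2.8 and 3.0 kb with DMSO and 2.2 and 2.8 kb with GSKJ4. As a share of the whole window the coverage was 4.90% ± 0.68 (SD, n = 2) with siCtrl and 2.59% ± 0.136 with siKDM6B33. The siRNA groups did not overlap, while the compound groups did.

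The height of the peak differed more than its width. The highest summit held 61 and 55 tags with siCtrl and 16 and 11 with siKDM6B33, although the siKDM6B33 libraries were the deeper ones. Over genome background it was 662 ± 20.1 (SD, n = 2) and 127 ± 31.8, so the siCtrl mean was 5.21 times the siKDM6B33 mean. In the knockdown comparison 33.7% of all merged H3K4me1 regions were lower in both siKDM6B33 libraries. A lower ratio of siKDM6B33 to siCtrl than at this site was seen in 6.32% of them. With DMSO the summit held 14 and 17 tags and with GSKJ4 6 and 8, or 299 ± 74.7 and 126 ± 23.7 over genome background. The DMSO mean was 2.37 times the GSKJ4 mean, without overlap. Of 23072 merged regions, 21.9% were lower with the compound and 12.2% had a lower ratio of GSKJ4 to DMSO. The siCtrl and DMSO libraries differed between themselves, at 648 to 676 and 246 to 352.

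**Figure D3:**
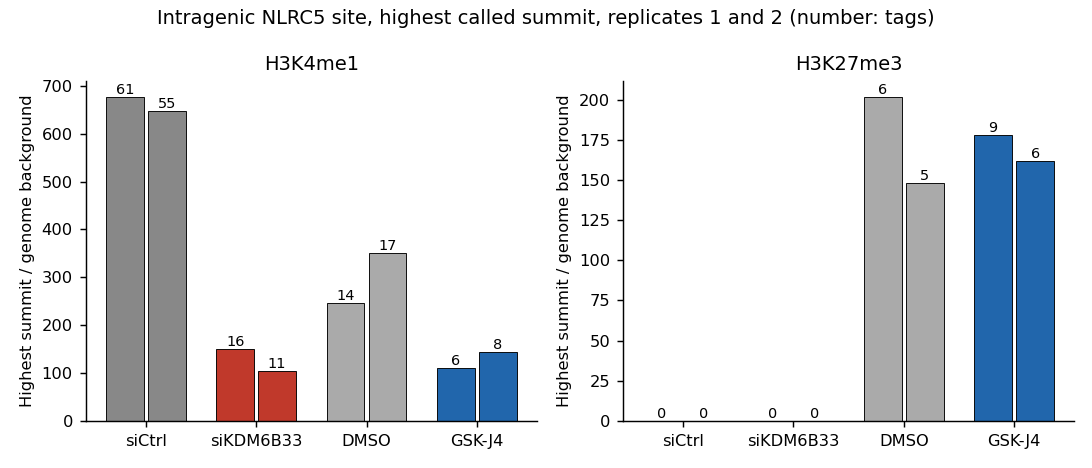
Highest called summit at the intragenic NLRC5 site divided by the genome background of its library, for replicates 1 and 2 of each group, with the tags at the summit above each bar (0 where no peak was called). H3K4me1 summits held 61 and 55 tags with siCtrl and 16 and 11 with siKDM6B33, and H3K27me3 peaks of 5 to 9 tags were called with DMSO and GSKJ4 alone.

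The 300 bases around the tallest siCtrl summit (GRCh37, chr16:57094797-57095096, plus strand) are shown because the H3K4me1 difference is centred there. The summit falls in the intron after exon 30, and capitals mark the single match to the 4 motifs named, a CCAAT on the opposite strand.
NLRC5 site: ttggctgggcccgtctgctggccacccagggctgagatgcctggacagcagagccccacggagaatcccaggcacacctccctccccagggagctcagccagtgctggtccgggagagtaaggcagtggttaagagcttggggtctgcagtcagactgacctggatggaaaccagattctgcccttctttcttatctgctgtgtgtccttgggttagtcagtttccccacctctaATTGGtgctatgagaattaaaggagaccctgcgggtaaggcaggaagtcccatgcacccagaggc
The H3K4me1 narrow peaks within 1 kb of the annotated starts of NLRC5 held at most 6 tags in any library.

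H3K27me3 was called at the same NLRC5 site in the compound experiment. Islands of 2.8 and 2.6 kb lay there with GSKJ4 and none with DMSO, which gave 2.69% and 2.50% of the window against 0% and 0%. Narrow peaks were nevertheless called there in all 4 libraries, with 6 and 5 tags under DMSO and 9 and 6 under GSKJ4. Over genome background these were 201 and 148 with DMSO and 178 and 162 with GSKJ4, which overlap. The H3K27me3 and H3K4me1 islands of GSKJ4 shared 2.2 kb in replicate 1 and 2.6 kb in replicate 2. In the siRNA experiment no H3K27me3 island or narrow peak was called at the site. When the islands of all 4 libraries were kept by score to the same total length, the NLRC5 island was left in GSKJ4 replicate 1, the library that stood apart, and not in replicate 2 (2.69% and 0%). H3K27me3 islands also lay on 4 of the 6 adrenergic genes named above in every library of the compound experiment and on 0 of 6 in every library of the siRNA experiment, and the part of that difference in this result was not tested.

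CIITA, the class II transactivator, is on the plus strand of chromosome 16 (chr16:10960079-11036878) and was the only one of the 9 genes with H3K27me3 islands in all 8 libraries. The islands covered 17.3% and 20.3% of its window with siCtrl and 39.2% and 35.7% with siKDM6B33. This is 18.8% ± 2.12 (SD, n = 2) and 37.4% ± 2.44, a difference of 18.7 percentage points and 1.99 fold, and 2.57% of all genes had a larger difference. Both DMSO libraries had 19.1%, and the GSKJ4 libraries had 16.6% and 18.2%. GSKJ4 minus DMSO was -1.73 percentage points, and it was -2.53 to -0.922 when any one library was left out. At equal island length it was -5.07, with 19.1% in both DMSO libraries, 9.91% in GSKJ4 replicate 1, the library that stood apart, and 18.2% in replicate 2. With narrow peak coverage the direction turned, to 0.143 percentage points higher with GSKJ4.

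The domain sat on the canonical start in all 8 H3K27me3 libraries and covered all of the 2.01 kb within 1 kb of the 3 starts of the basic protein-coding transcripts. An upstream annotated start, 10.98 kb before the canonical one, was not under an island with siCtrl, DMSO or GSKJ4. Around it, islands summed to 15 and 17.6 kb with siCtrl and to 31.4 and 29.8 kb with siKDM6B33. They summed to 16.6 kb in both DMSO libraries and to 10.6 and 15.8 kb with GSKJ4, where replicate 1 had another 3.8-kb island near the end of the gene. A further island of 2.6 and 1.2 kb, 22.5 to 25.3 kb downstream of the canonical start, was called with siKDM6B33 only. Narrow peaks of 3 to 5 tags were also called there in siCtrl replicate 1 and GSKJ4 replicate 2. The heights of the domain overlapped between the siRNA groups. The highest summit of the domain held 12 and 7 tags with siCtrl and 13 and 15 with siKDM6B33, or 304 and 175 against 241 and 284 over genome background, which overlap. The siKDM6B33 libraries had more islands overall (15947 and 15775 against 10555 and 10592), and with all 4 libraries kept to the same island length CIITA had 32.5% and 31.8% against 17.3% and 20.3%, still without overlap.

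**Figure D4:**
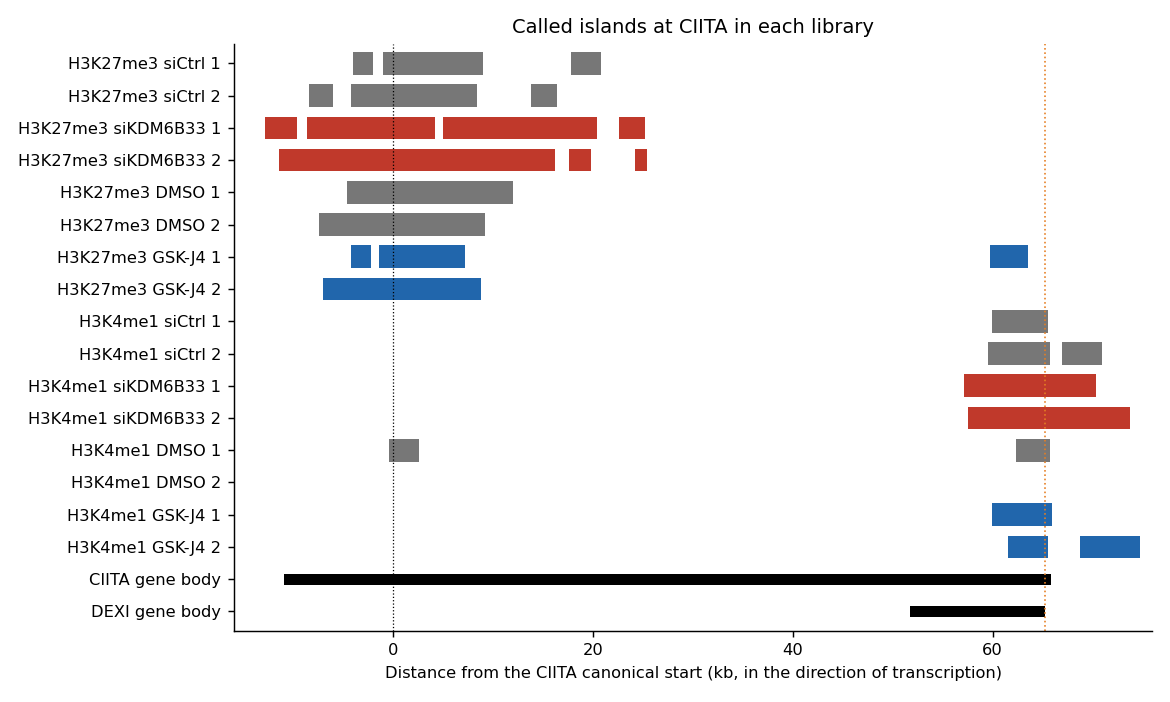
Islands called at CIITA in each library, against distance from its canonical start in kb. Each row is 1 library, black bars are the bodies of CIITA and DEXI, and dotted lines are their canonical starts; the H3K27me3 domain is on the CIITA start in all 8 libraries, and 7 of the 8 H3K4me1 libraries have an island at the DEXI start.

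H3K4me1 at CIITA lay at the far end of the gene. With siCtrl it covered 6.45% and 11.6% of the window, and with siKDM6B33 15.2% and 15.3%. In each of these 4 libraries an island (5.6 and 6.2 kb with siCtrl, 13.2 and 16.2 kb with siKDM6B33) lay over the start of DEXI, which is inside the end of CIITA and read in the opposite direction, so it cannot be assigned to CIITA. The start of CLEC16A, beyond CIITA, was under the same island in both siKDM6B33 libraries and under a separate 4-kb island in siCtrl replicate 2. The highest summit held 8 and 8 tags with siCtrl and 40 and 41 with siKDM6B33, or 91.5 ± 3.92 (SD, n = 2) and 382 ± 11.3 over genome background, a ratio of 4.18. A larger ratio was seen in 14.6% of the merged regions. The islands of siKDM6B33 ranked at or above 97.3% and 97.4% of the islands of their libraries by score. In the compound experiment the DMSO libraries had 7.37% and 0% and the GSKJ4 libraries 6.91% and 7.002%, which overlap. H3K4me1 and H3K27me3 islands at CIITA shared 0 kb in the siRNA experiment, 3.0 kb in DMSO replicate 1, where an H3K4me1 island lay on the CIITA start, and 3.6 kb in GSKJ4 replicate 1.

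Narrow peaks summed over the windows of the 9 genes were few. For H3K27me3 there were 4 and 5 with siCtrl and 6 and 13 with siKDM6B33, and 1 and 6 with DMSO and 9 and 8 with GSKJ4. For H3K4me1 there were 20 and 19 with siCtrl and 25 and 26 with siKDM6B33, and 13 and 9 with DMSO and 6 and 7 with GSKJ4. The groups did not overlap in any of these comparisons, and the exact permutation p was 0.333, the smallest possible, in each. For H3K4me1 with the knockdown the totals join opposite moves. CIITA had 6 and 3 with siCtrl and 14 and 13 with siKDM6B33, while NLRC5 had 12 and 14, then 7 and 9. B2M had 2 in both siCtrl libraries and 4 in both siKDM6B33 libraries. Of the CIITA peaks, 4 and 3 with siCtrl and 14 and 12 with siKDM6B33 lay at the site over the DEXI start. Over the whole genome, H3K27me3 narrow peaks were also more numerous with siKDM6B33 (44262 and 44475 against 32367 and 33368) and with GSKJ4 (61200 and 40590 against 29752 and 34712). H3K4me1 totals overlapped with the knockdown (131341 and 125782 with siCtrl, 130265 and 128694 with siKDM6B33) and were higher with GSKJ4 (75082 and 76248 against 74656 and 61087), where those over the 9 genes were lower. With peaks of −log10 q of at least 2 alone the groups tied at 3 for H3K27me3 with siKDM6B33 (3 and 2, then 3 and 8) and overlapped for H3K4me1 with GSKJ4 (7 and 4, then 3 and 5). With summits of at least 5 tags H3K27me3 with siKDM6B33 tied at 3 again (3 and 3, then 3 and 9).

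Another 52 genes of the pathway were counted for comparison, of which 18 lie in the sparse stretch of chromosome 6. Of those 18, only HLA-DRB1, HLA-DRB5 and HLA-DQB1 had an island in any library. Outside the stretch, 25 of 34 had more H3K4me1 coverage with siKDM6B33 and 1 had less, where all genes outside gave 46.7% and 9.72%. For H3K27me3 with siKDM6B33 the counts were 4 and 1 of 34, with 10.1% and 3.28% of all genes outside. With GSKJ4 they were 7 and 3 of 34 for H3K4me1 (10.4% and 8.04% of all genes) and 2 and 3 of 34 for H3K27me3 (5.57% and 4.07%).

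By function, and outside the stretch, H3K4me1 with siKDM6B33 was higher at 5 of 6 proteasome genes, with a median difference of 19.0 percentage points, beside 46.7% of all genes outside. It was higher at 13 of 17 regulators and interferon signalling genes (median 6.07), at 3 of 3 ligands of natural killer receptors (median 22.8) and at 4 of 6 class I loading genes, of which 1 was lower (median 9.30). Of the 13 class II genes 11 lie in the stretch, and neither of the other two, CD74 and CTSS, was higher or lower. CALR, a chaperone of class I folding, had 37.1% and 33.9% with siCtrl and 87.4% in both siKDM6B33 libraries. PSME2, a subunit of the proteasome activator, had 52.1% and 29.6% and then 83.1% and 87.5%. RFX5, part of the complex on which NLRC5 and CIITA act, had 0% in both siCtrl libraries and 43.1% and 32.4% with siKDM6B33. These 3 have the largest mean differences among the listed genes whose groups did not overlap.

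The largest mean differences of the other comparisons were again taken only among the listed genes whose groups did not overlap. For H3K27me3 with siKDM6B33 they were at HLA-DQB1, ULBP1 and SOCS1. HLA-DQB1, a class II chain, had 14.8% in both siCtrl libraries, then 48.6% and 41.2%. ULBP1, a ligand of the receptor NKG2D, had 72.4% and 44.1%, then 90.9% and 83.8%. SOCS1, an inhibitor of interferon signalling, had 0% and 0%, then 28.8% and 25.4%. HLA-DQB1 lies in the sparse stretch. With GSKJ4 the largest H3K27me3 differences were at ULBP3, another such ligand, which had 39.9% and 51.0% with DMSO and 27.7% and 38.8% with GSKJ4. NFYB, a subunit of NF-Y, had 0% and 0% and then 3.85% and 16.05%, and IRF8, an interferon regulatory factor, 97.01% and 97.6% and then 85.1% and 94.6%. For H3K4me1 with GSKJ4 they were PSME1, the partner of PSME2 (23.7% and 14.1%, then 42.4% and 48.6%), IRF1, an interferon-induced factor (18.4% and 8.94%, then 38.1% and 28.4%), and PSMB7, a subunit of the constitutive proteasome (2.22% and 0%, then 12.2% and 11.5%).

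Across the 8 libraries of a mark, the genes over 1 Mb away with coverage most like that of a member were named by Pearson's r, as a description with no test. Libraries of 1 group share their treatment and much of their depth. For H3K4me1 at NLRC5 these were NHERF4 (r = 0.983) and ST3GAL4 (r = 0.980). For H3K27me3 at CIITA they were FSIP1 (r = 0.997) and PRKCB (r = 0.996), of which PRKCB had 2.33% and 3.14% with siCtrl and 10.9% and 9.63% with siKDM6B33. For H3K4me1 at CIITA they were OGA (r = 0.978) and RHOT2 (r = 0.971).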

How the data were processed

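CUT&Tag of H3K27me3 and H3K4me1 was done in BE2C cells, and the sample titles gave the group and number of each library. The authors aligned reads to hg19 with BWA 0.7.12, removed duplicates with Picard 1.65, kept properly paired, uniquely mapped fragments, and called islands with SICER 1.1 and narrow peaks with MACS2 library by library. MACS2 is 2.1.1 in the submitters' processing notes. The score in the deposited island lists sums over windows and was used for ranks only. The deposited fold, a ratio with a pseudocount, and −log10 p of a narrow peak were solved for its whole-number summit tags and local background, for at least 99.99% of the peaks of a library. The deposited −log10 q was used to filter peaks, and the deposited summit offset, in bases, to place them. Neither spike-in factors nor reads per region were used.

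Python 3.11.15, NumPy 2.4.6, pandas 2.3.3, SciPy 1.17.1, Biopython 1.88 and matplotlib 3.10.9 were used, with GRCh37 and GENCODE 44 mapped to it. Coverage is the percent of a gene body with 5 kb on each side under islands. Groups were called different where their 2 libraries each did not overlap, and the share of all 20136 genes so called is the background. Single values were tested by an exact two-sided permutation test. Merged regions join islands of 4 libraries that share at least 1 bp, and the genome background is the smallest local value found in the 20 most frequent combinations of fold and p. The coverage and summit steps were tested on simulated data. Depth limits precision, since many summits hold few tags, and no counting interval applies to coverage.

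The 9 genes, the pathway lists, the marker genes, the motifs and the rule for the genes named (all 9, up to 3 others per comparison with the largest mean coverage difference among those without overlap, 2 genes most alike, and KDM6B) were chosen with earlier results of these data known. Some marker genes and promoter sequences are not reported here. The summit comparison over merged regions, the chromosome 6 stretch and its word counts were added after the values were seen. The stretch ends at the nearest 100-kb bin on either side of HLA-B that holds at least the genome median of H3K4me1 peaks. Alternatives were the gene body alone, 10 kb on each side, islands joined within 2 kb, islands cut to equal length, narrow peak coverage, −log10 q of at least 2, summits of at least 5 tags, and leaving out each library.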

Additional observations from a re-analysis of the deposited data

Results flagged for a closer look

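The H3K27me3 island coverage of CIITA differed from its controls in opposite directions in the 2 experiments. Both siKDM6B33 libraries lay above both siCtrl libraries and both GSKJ4 libraries lay below both DMSO libraries, and the 2 differences are 20.4 percentage points apart. The opposition is lost with narrow peaks, which covered more of CIITA with GSKJ4 than with DMSO (a difference of 0.143 percentage points) and numbered 0 and 2 with DMSO and 4 and 5 with GSKJ4. This difference between the experiments was not tested, and the 2 treatments have separate controls of separate depth.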

How the results depend on the processing

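Of the alternatives to a count of genes or peaks, 88 gave a count within 1.5 times that reported and 24 did not. The direction turned for 1 named gene: H3K27me3 at CIITA with GSKJ4 was -1.73 percentage points by islands and 0.143 by narrow peak coverage. With narrow peak coverage in place of islands, H3K27me3 was higher with siKDM6B33 at 2 genes (B2M and CIITA) and lower at 1 (HLA-B), higher with GSKJ4 at 2 (NLRC5 and CIITA) and lower at 0, and H3K4me1 was lower with GSKJ4 at 2 (B2M and NLRC5). At equal covered length, H3K27me3 was higher with GSKJ4 at 0 genes, and H3K4me1 was higher with GSKJ4 at 1 (CIITA). With 10 kb on each side H3K4me1 with GSKJ4 was higher at 1 gene (CIITA) and lower at 1 (NLRC5). The narrow peak difference of H3K27me3 with siKDM6B33 was 3 at −log10 q of at least 2 and 3 at summits of at least 5 tags, against 5, and with GSKJ4 it was 1.5 at the latter, against 5. That of H3K4me1 with siKDM6B33 was 11 at −log10 q of at least 2, against 6, and with GSKJ4 -1.5 and -2.5 under these filters, against -4.5. Without one library at a time, the H3K4me1 counts with GSKJ4 ranged from 0 to 1 higher (CIITA without DMSO replicate 1) and from 0 to 1 lower (NLRC5 without DMSO replicate 1 or GSKJ4 replicate 2, CIITA without DMSO replicate 2). Narrow peak differences over the 9 genes ranged from 1.5 (without siKDM6B33 replicate 2) to 8.5 (without siKDM6B33 replicate 1) for H3K27me3 with siKDM6B33 and from 2.5 (without DMSO replicate 1) to 7.5 with GSKJ4. For H3K4me1 they ranged from 5.5 to 6.5 and from -6.5 to -2.5 (without DMSO replicate 1). The causes were not tested. The deviations of same-numbered libraries had a correlation of -0.0425 to 0.0692 over genes. With 2 libraries per group this cannot decide whether the numbers pair them. With a replicate block H3K4me1 with GSKJ4 was lower at 1 gene (NLRC5) in place of 0, and the block changed no other count.

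Shallow summits limit these lists: at B2M, 2 and 3 tags in the siCtrl libraries lay under no island. Its H3K4me1 difference of 18.3 percentage points was the same at equal covered length, 35.3 over the gene body alone and 12.4 with 10 kb on each side. For named genes, 41 alternatives moved a difference by less than the spread between replicates, 12 by more, and 1 turned it. That spread was wide for H3K4me1 at CIITA with siKDM6B33, where the difference was 6.22 percentage points. It ranged from 3.64 to 8.80 when any one library was left out. Over the gene body alone it was 3.36, and with 10 kb on each side 7.02.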
